A study of Homo sapiens with 16 samples.

Results

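Of 47231 probes on the array, 4 were followed here because they read lower with the anti-NQO1 antibody than with control IgG: ILMN_1881909, ILMN_2051684, ILMN_3291352 and ILMN_1669669. They were found by their manufacturer IDs, and all 4 were among the 19914 probes tested, which were those detected on at least 4 of 16 arrays. The files used here do not pair these IDs with genes, and the gene tables at hand held 0 of them, so the probes go by ID, without a gene role or a probe sequence. In cells kept in control medium the 4 probes were 1.76-fold to 2.48-fold lower with the anti-NQO1 antibody as normalized here. Of all tested probes, 0 passed an adjusted p of 0.05 for that comparison by limma. Without background correction the log2 differences of the 4 lay between -1.25 and -0.42. After β-lapachone the difference was smaller for each of the 4 probes as normalized here. With another scaling, median centring, that of ILMN_1669669 was larger after the drug, at -0.67 against -0.57 (log2). The ratio of NQO1 to IgG was higher after the drug for 57.3% of all tested probes. Where control medium chose the probes, a smaller difference after the drug follows in part from that choice. For the brightest, ILMN_1881909, the difference of NQO1 minus IgG after the drug ran from -0.23 to 0.37 (log2) over the settings tried.

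The samples are RNA precipitates from HepG2, an established human hepatocarcinoma line, in 4 groups of 4 arrays. The cells had 30 min in regular medium, called control, or with β-lapachone added at 10 µM. Their cytoplasmic lysate was put on protein-A beads carrying either mouse anti-NQO1 or mouse IgG, and the 4 combinations of medium and antibody are the 4 groups. All groups thus come from 1 cell line with its own NQO1, and cells lacking NQO1 and RNA of the whole lysate were not analysed here. Markers of liver cells could not be read without gene names. The labels number the replicates 1 to 4 in each group but do not say whether they were separate cultures, so the errors and p-values below cover the spread among these arrays alone, and that spread may be technical.

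NQO1 is a cytosolic flavoenzyme that reduces quinones with NADH or NADPH, and it is induced as part of the cell's response to oxidative and electrophilic stress. β-Lapachone is a quinone substrate of NQO1. Its reduced form is oxidised again, so the enzyme cycles and uses up its cofactor. In RNA immunoprecipitation a protein is pulled down with its antibody and the RNA that comes with it is measured, while IgG of no set target shows the RNA that sticks to beads and antibody in general. An RNA held by the target is therefore sought among probes above IgG. In control medium the 4 probes here had means on the other side of that comparison, and after β-lapachone 3 of the 4 did. The title of the study names SERPINA1, the mRNA of the protease inhibitor alpha-1 antitrypsin, as its main target, and it was not analysed here.

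The members were chosen on the values of NQO1 against IgG, so these values are given as a description without a test. Their confidence intervals are not corrected for that choice, so an interval that leaves out 0 is not read as a test. Ranked by limma's p among the probes with lower values in control medium, ILMN_1881909 was number 1, ILMN_1669669 number 2, ILMN_3291352 number 4 and ILMN_2051684 number 5. ILMN_2051684, the last inside, had a log2 difference of -0.81 (SE 0.29), and the probe after it, number 6, one of -1.49 (SE 0.54), which was larger but less even between arrays. The probe at number 3, with -0.87 (SE 0.31), is not a member. Averaged over both media, ILMN_1669669 was number 1, and the others were numbers 11, 14 and 32. A choice by p favours an even signal, and 82.7% to 96.2% of the tested probes had a larger spread within groups than each of the 4.

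Arrays differed in how much they detected, from 9101 probes (NQO1 replicate 4 in control medium) to 19097 (NQO1 replicate 4 after β-lapachone), with IgG replicate 4 after β-lapachone low as well at 9223. Detection means a deposited detection p under 0.05 for that array. In the fit over all tested probes, 0 passed an adjusted p of 0.05 for NQO1 against IgG in control medium by limma. An unadjusted p under 0.05 by limma was held by 59, or 0.296% of those tested. After β-lapachone 0 passed and 146 (0.733%) had such an unadjusted p, and 2 probes, neither a member, passed for β-lapachone averaged over both precipitates.

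ILMN_1881909 was the brightest of the 4 and was detected on all 16 arrays. As deposited, its intensity in control medium was 3088, 2333, 2581 and 4382 on IgG replicates 1 to 4 and 1189.6, 2077, 1189.4 and 170.4 on the NQO1 replicates. Every NQO1 array lay below every IgG array before any normalization. After β-lapachone the intensities were 3642, 2203, 3173 and 874 with IgG and 4646, 5861, 2487 and 5942 with anti-NQO1, so that 3 of the 4 NQO1 arrays lay above every IgG array. Deposited values also carry the brightness of the whole array. The median intensity over all probes was 116.7, 161.8, 129.3 and 136.2 on these NQO1 arrays and 117.2, 105.3, 116.3 and 92.2 on these IgG arrays. It was 91.5 on NQO1 replicate 4 of control medium, the array with the 170.4.

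**Figure D1:**
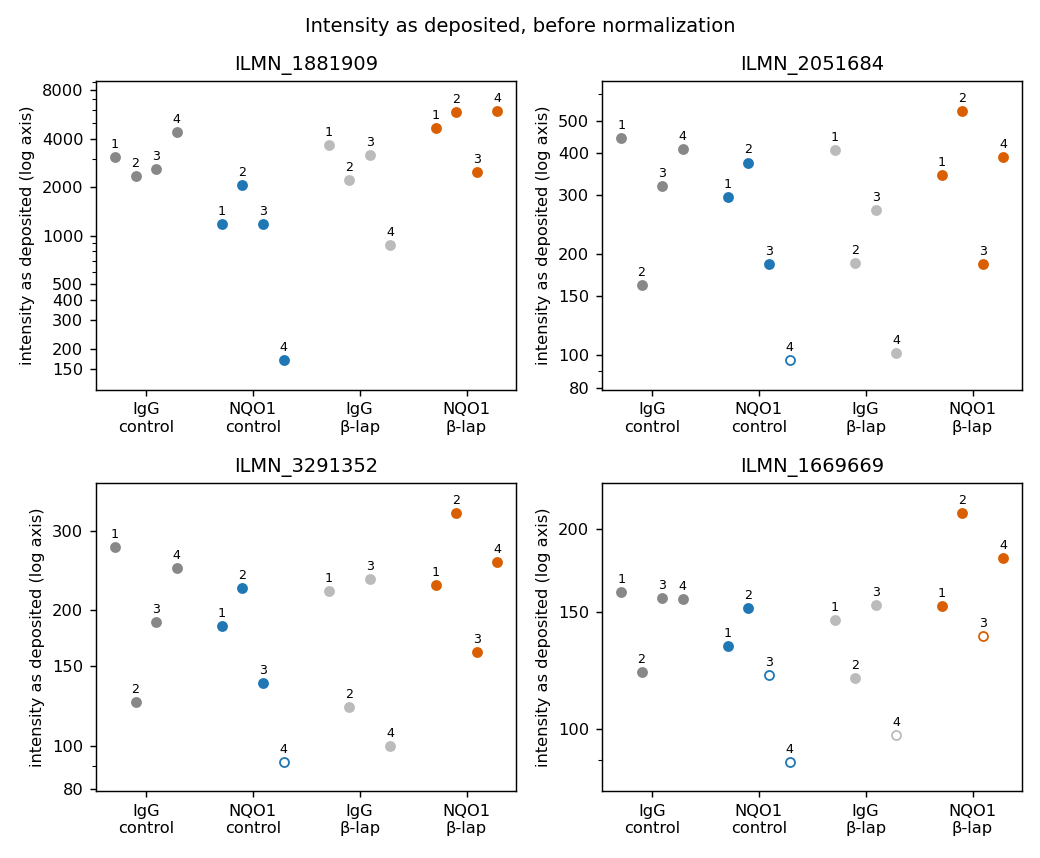
Intensity of the 4 probes as deposited, on a log axis, for each array, with the replicate number above each point, filled where the probe was detected and open where it was not. ILMN_1881909 lay between 170.4 and 2077 in the NQO1 precipitates from control medium and at 2333 or more with IgG there, while the other 3 probes overlapped between antibodies on this scale.

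On the normalized log2 scale, on which each array has the same distribution of values, the same probe read 11.30, 11.72, 11.42 and 11.99 with IgG in control medium. With anti-NQO1 it read 10.03, 10.63, 10.22 and 10.30, and the gap between the groups was 0.67. The means were 10.30 ± 0.25 and 11.61 ± 0.31 (log2, SD, n = 4 each), a log2 difference of -1.31 (SE 0.28, 95% confidence interval -1.91 to -0.71), or 2.48-fold lower. After β-lapachone the NQO1 arrays read 11.87, 11.62, 11.16 and 12.01, with a mean of 11.66 ± 0.37 (n = 4). The IgG arrays read 11.55, 11.38, 11.38 and 11.71, with a mean of 11.51 ± 0.16 (n = 4). The groups overlapped, and the log2 difference was 0.16 (SE 0.28, interval -0.44 to 0.76).

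In order of level for ILMN_1881909, NQO1 after β-lapachone, IgG in control medium and IgG after β-lapachone followed each other within their SDs, and only NQO1 in control medium stood below them. Within its array the probe sat at the 93.7th to 95.4th percentile of all probes in that group, against the 96.7th to 98.2nd on the other 12 arrays. The move lay in the NQO1 precipitates: from control medium to β-lapachone the probe was 1.37 higher there (log2, SE 0.28, interval 0.77 to 1.97), with no overlap between the 2 groups. All 4 drug arrays lay above all 4 control arrays for 0.628% of the tested probes. Where the low values in control medium chose the probe, this order and the rise are partly fixed by that choice. Nothing is therefore read from that share. In the IgG precipitates the difference between media was -0.10 (SE 0.28, interval -0.70 to 0.50).

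For ILMN_1881909 the ratio of NQO1 to IgG was 1.47 higher after β-lapachone than in control medium (log2, SE 0.40, interval 0.63 to 2.31), and by p it ranked number 1 among all tested probes in that direction. Where the low values in control medium chose the probe, this number is partly fixed by that choice. It was between 1.34 and 1.64 with any single array left out.

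**Figure D2:**
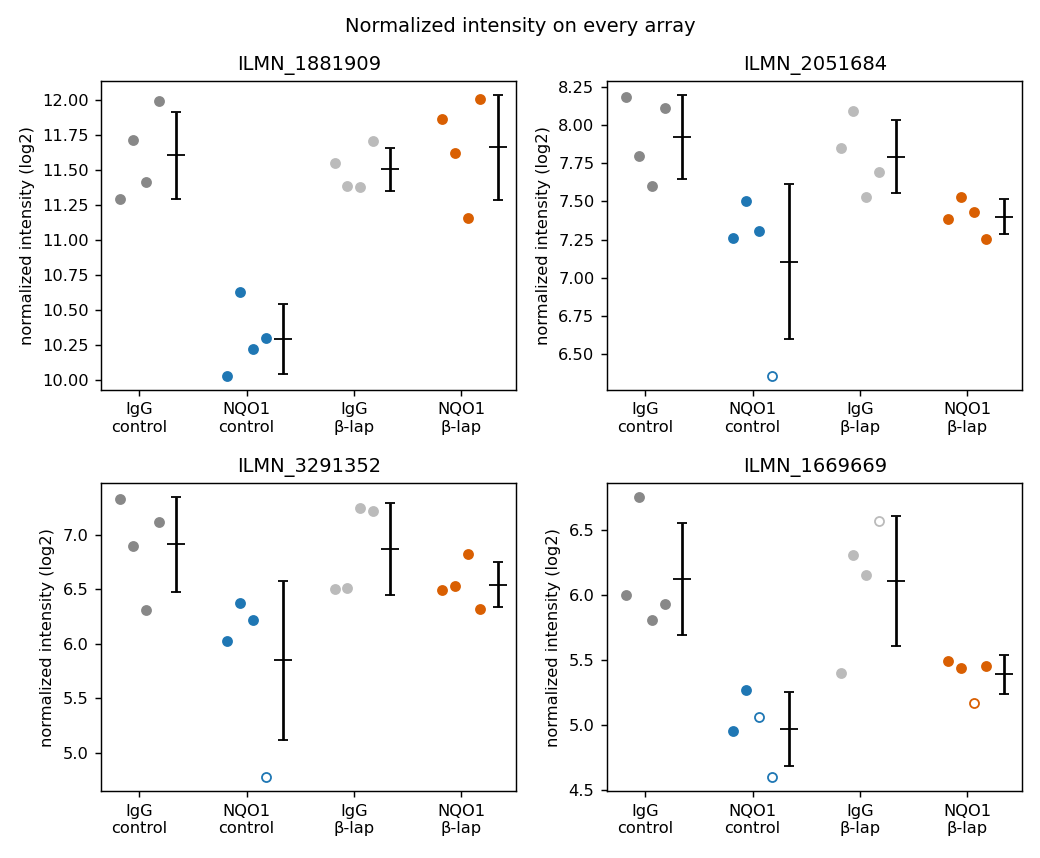
Normalized log2 intensity of the 4 probes on each array, by antibody and medium, with replicates 1 to 4 from left to right, filled points detected and open points not, and bars for mean ± SD (n = 4). ILMN_1881909 was low only in the NQO1 precipitates from control medium, at 10.03 to 10.63, while the lowest points of ILMN_2051684, ILMN_3291352 and ILMN_1669669 were all NQO1 replicate 4 of control medium.

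ILMN_2051684 was of middle brightness and was detected on 15 arrays. In control medium its deposited intensity was 444, 162, 319 and 411 with IgG and 297, 375, 187 and 97.0 with anti-NQO1, and the last value was not above background. These ranges overlapped, unlike those of ILMN_1881909. Normalized, the IgG arrays read 8.18, 7.79, 7.60 and 8.11 and the NQO1 arrays 7.26, 7.50, 7.31 and 6.36, without overlap.

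The means of ILMN_2051684 in control medium were 7.11 ± 0.51 with anti-NQO1 and 7.92 ± 0.27 with IgG (n = 4 each), a log2 difference of -0.81 (SE 0.29, interval -1.44 to -0.19). Without NQO1 replicate 4, the undetected value, it was -0.57. After β-lapachone the IgG arrays read 7.85, 8.09, 7.53 and 7.69 and the NQO1 arrays 7.38, 7.53, 7.43 and 7.25. The groups again did not overlap, by a margin of 0.002. The means were 7.40 ± 0.12 and 7.79 ± 0.24 (n = 4 each), a log2 difference of -0.39 (SE 0.29, interval -1.02 to 0.24).

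With both media together, all 8 NQO1 arrays of ILMN_2051684 lay below all 8 IgG arrays. It was the only tested probe with this order in that direction (0.00502%), but the rule chose on NQO1 against IgG. The order is thus partly fixed by that choice, and nothing is read from it. The order hangs on the same margin of 0.002, and it was lost with median centring, with z scores and on the deposited intensity. The ratio of NQO1 to IgG was 0.42 higher after the drug (log2, SE 0.42, interval -0.46 to 1.31), and 0.18 higher without NQO1 replicate 4 of control medium. In order of level the groups ran from IgG in control medium to IgG after β-lapachone, NQO1 after β-lapachone and NQO1 in control medium, and the neighbours with the same antibody differed by less than the larger of their SDs.

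ILMN_3291352 was dimmer and was also detected on 15 arrays. Its deposited intensity in control medium was 276, 125, 188 and 249 with IgG and 185, 224, 138 and 92.2 with anti-NQO1, the last again not above background. Normalized, it read 7.32, 6.90, 6.31 and 7.12 with IgG and 6.03, 6.37, 6.22 and 4.78 with anti-NQO1. IgG replicate 3 lay below NQO1 replicate 2, so that this was the only member whose groups overlapped in control medium.

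The means of ILMN_3291352 were 5.85 ± 0.73 with anti-NQO1 and 6.91 ± 0.44 with IgG (n = 4 each), a log2 difference of -1.06 (SE 0.38, interval -1.87 to -0.26). Much of its size came with NQO1 replicate 4, the array with the fewest detected probes, and without it the difference was -0.71. After β-lapachone the arrays read 6.51, 6.51, 7.24 and 7.22 with IgG and 6.50, 6.53, 6.82 and 6.32 with anti-NQO1. These groups overlapped, with means of 6.87 ± 0.42 and 6.54 ± 0.21 (n = 4 each), and the log2 difference was -0.33 (SE 0.38, interval -1.13 to 0.48). The ratio was 0.74 higher after the drug (SE 0.53, interval -0.40 to 1.87), and 0.38 higher without NQO1 replicate 4 of control medium. In order of level the IgG groups came first, then NQO1 after β-lapachone, then NQO1 in control medium, and only the last step, 0.69, exceeded the SD of either IgG group, though not the SD of 0.73 of its own lower group.

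ILMN_1669669 was the dimmest of the 4, detected on 7 of 8 IgG arrays and 5 of 8 NQO1 arrays. In control medium its deposited intensity was 160.4, 122, 157 and 157 with IgG and 134, 152, 121 and 89.5 with anti-NQO1, of which the last 2 were not above background. The arrays' median intensity over all probes lay between 91.5 and 162, so these values were close to the bulk of the array. Normalized, the IgG arrays read 6.00, 6.76, 5.81 and 5.93 and the NQO1 arrays 4.95, 5.27, 5.07 and 4.60, without overlap and with a gap of 0.54.

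The log2 difference of ILMN_1669669 in control medium was -1.15 (SE 0.32, interval -1.83 to -0.48), from means of 4.97 ± 0.28 and 6.13 ± 0.43 (n = 4 each). Without background correction it was -0.42. After β-lapachone the NQO1 arrays read 5.50, 5.44, 5.17 and 5.46 and the IgG arrays 5.40, 6.31, 6.15 and 6.57, the highest of which was not above background. IgG replicate 1 lay among the NQO1 arrays. The log2 difference was -0.72 (SE 0.32, interval -1.39 to -0.043), from means of 5.39 ± 0.15 and 6.11 ± 0.50 (n = 4 each), and it was -0.56 without the undetected IgG array. The ratio was 0.44 higher after the drug (SE 0.45, interval -0.52 to 1.39), and 0.20 higher without IgG replicate 1 after β-lapachone. In order of level the 2 IgG groups were equal within their SDs and both lay above the NQO1 groups, of which the one after β-lapachone was higher by 0.42 (SE 0.32), more than the SD of either.

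Set side by side, all 4 probes had lower fitted means with anti-NQO1 in control medium, as did 57.7% of all tested probes, and 3 of the 4 were at least 2-fold lower, against 2.74%. The groups did not overlap for 3 of the 4, against 0.387% of all tested probes with every NQO1 array below every IgG array. The rule chose on NQO1 against IgG without naming the medium, so nothing is read from these counts or from those after the drug. After β-lapachone 3 of the 4 had lower means, against 48.2% of tested probes, and 1 of the 4 had no overlap, against 0.467%. The median log2 difference of the 4 was -1.11 in control medium, where the median of all tested probes was -0.091, and -0.36 after the drug, where it was 0.030.

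All 4 probes had a higher NQO1 over IgG ratio after β-lapachone, and so did 57.3% of tested probes. The median of the 4 was 0.59, against 0.18 for all. The members all stand among the first 5 of control medium, and where a probe is picked for a large difference in 1 medium, a smaller one in the other follows in part from that choice. Whether the drug removed the difference was therefore not tested. With median centring the ratio of ILMN_1669669 differed by -0.10 after the drug, the other way, while the median of all tested probes moved to -0.32 for that comparison. Relative to the median of all probes it was 0.26 higher as reported and 0.22 higher with that scaling.

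**Figure D3:**
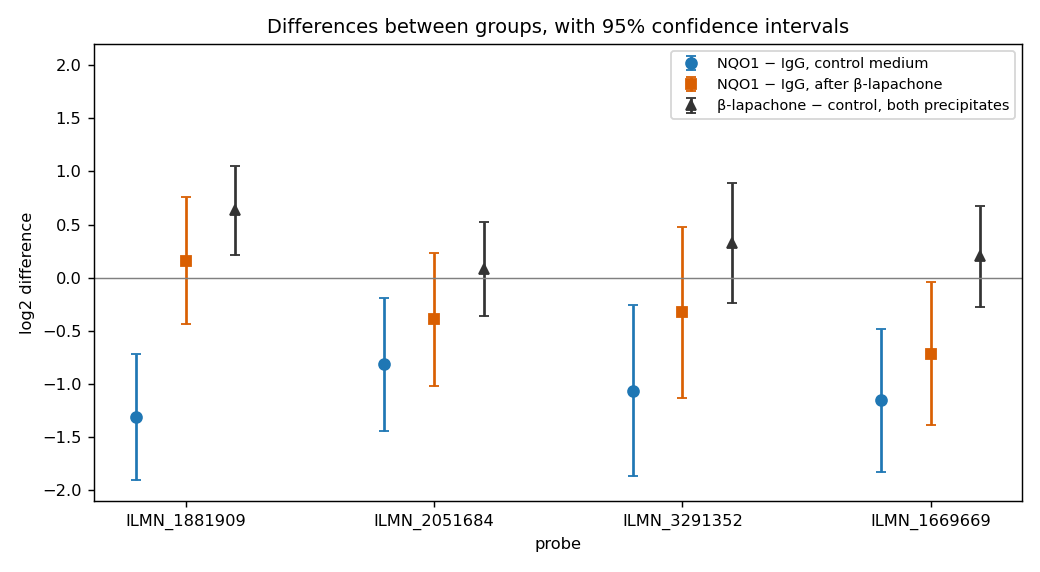
Log2 differences of the 4 probes with 95% confidence intervals from limma over 16 arrays, for NQO1 minus IgG in control medium (circles), after β-lapachone (squares), and for β-lapachone minus control averaged over both precipitates (triangles). The circles lie between -1.31 and -0.81 by the choice of the probes, the square of ILMN_1881909 at 0.16 is the only one above 0, and the triangles lie between 0.082 and 0.63. The intervals are not corrected for that choice.

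β-Lapachone against control medium, averaged over both precipitates, is a different contrast from the one that chose the probes, and it was tested. Its p-values use the same spread within groups, which a choice by p favours as small, so they are not wholly free of the choice. ILMN_1881909 was 0.63 higher with the drug (log2, SE 0.20, interval 0.21 to 1.06), with means of 11.58 and 10.95 over 8 arrays each, and did not pass (adjusted p = 1, unadjusted p = 0.006, by limma). The 8 arrays of each medium overlapped. The other 3 had log2 differences of 0.082 (SE 0.21) for ILMN_2051684, 0.33 (SE 0.27) for ILMN_3291352 and 0.20 (SE 0.22) for ILMN_1669669, each with an adjusted p of 1 by limma. Thus 0 of the 4 passed, where 0.01% of the tested probes did. These 2 are outside the chosen set and were named after their values were seen. ILMN_1751120 was 2.64 higher with the drug (SE 0.30, adjusted p = 0.00607 by limma) and ILMN_1681542 2.58 higher (SE 0.35, adjusted p = 0.0253 by limma). Both were detected on all 8 arrays with the drug but on only 1 and 3 of the 8 control-medium arrays, so these sizes are taken mostly against values not above background. The count of 2 is not steady, at 0 without background correction, 5 without IgG replicate 4 after the drug, and 143 on the 10 arrays with over 16000 detected probes.

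With IgG, which has no set target, none of the 4 differed between media by more than its SE as normalized here. The log2 differences were -0.10 for ILMN_1881909, -0.13 for ILMN_2051684, -0.043 for ILMN_3291352 and -0.017 for ILMN_1669669, with SE from 0.28 to 0.38. Within the NQO1 precipitates they were 1.37, 0.29, 0.69 and 0.42 in the same order, with the same SE. All 4 thus had higher means with the drug there, as did 57.4% of all tested probes, whose median was 0.088. Without NQO1 replicate 4 of control medium the value was 0.045 for ILMN_2051684 and 0.34 for ILMN_3291352, and with median centring it was -0.035 for ILMN_1669669. With z scores ILMN_2051684 differed between media by more than its SE in the IgG precipitates, at -0.47 (SE 0.40). ILMN_1881909 was there at 0.20 (SE 0.36). Arrays of both antibodies took part in the choice of the probes, so no p is given. The amount of an RNA in the cells and the share of it recovered in a precipitate cannot be told apart in these bulk samples.

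The 4 probes shared part of their pattern. Across the 16 arrays ILMN_2051684 and ILMN_3291352 correlated at r = 0.82, and ILMN_1669669 correlated with them at 0.71 and 0.74. ILMN_1881909 was less like the rest, at 0.54, 0.59 and 0.64. These values hold the group difference that chose the probes, and all points share the arrays and their normalization. With the group means taken out, ILMN_1881909 had an r of 0.014 with ILMN_2051684 and -0.009 with ILMN_3291352, and 0.30 with ILMN_1669669. ILMN_2051684 and ILMN_3291352 kept 0.67, and 1.38% of tested probes correlated more closely with ILMN_3291352 in this way. That relation rested on 1 array, since without NQO1 replicate 4 of control medium, where both were not above background, r was 0.21.

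The probes most like each member across the 16 arrays were found over all tested probes. For ILMN_1881909 the closest were ILMN_1736982 and ILMN_1682626, at r = 0.67 and 0.66. They were detected on only 6 and 4 arrays, and within groups r was 0.45 and 0.34. Across the 16 arrays no tested probe thus followed ILMN_1881909 more closely than r = 0.67. The probes with the highest r within groups were not looked for. For ILMN_3291352 the closest were ILMN_2352121 (r = 0.90) and ILMN_1743579 (r = 0.90), with 0.86 and 0.89 within groups. ILMN_2352121 was also the number 2 for ILMN_2051684 (r = 0.85), after ILMN_1686920 (r = 0.85). Whether the correlations with neighbours also rest on 1 array was not tested.

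The neighbours of ILMN_2051684 and ILMN_3291352 were brighter or of like brightness, with means of 7.46 to 8.92 on the log2 scale, and each was detected on 15 of 16 arrays. Their log2 differences between NQO1 and IgG ran from -1.22 to -0.94 in control medium and from -0.71 to -0.30 after β-lapachone. For ILMN_1669669 the closest were ILMN_1738909 (r = 0.90, detected on 14 arrays) and ILMN_1749466 (r = 0.86, detected on 6). ILMN_1738909 differed by -0.84 in control medium and by -0.84 after the drug, so that its ratio was nearly the same in both. As the 4 members are low with anti-NQO1, a close neighbour tends to be low there too, and these are values only.

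Scaling left the control-medium difference below 0 for all 4 probes, but not its size. ILMN_1881909 ran from -1.82 with median centring to -1.18 without IgG replicate 4 of control medium. It was also the only member whose NQO1 and IgG arrays stayed apart in control medium on all 6 scales looked at, the deposited intensity and the percentile within an array among them. The 3 members without overlap became 2 with median centring, 1 with z scores and 1 on the deposited intensity, and stayed 3 without background correction. The 2 dimmest were most open to the background correction, without which ILMN_3291352 read -0.49 and ILMN_1669669 -0.42. After β-lapachone the sign for ILMN_1881909 turned to -0.13 with median centring and -0.23 with z scores, and that for ILMN_2051684 to 0.018 with z scores. Median centring put the median of all tested probes at -0.38 in that comparison. Relative to it ILMN_1881909 was 0.25 higher, and with z scores it stood at -0.084.

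**Figure D4:**
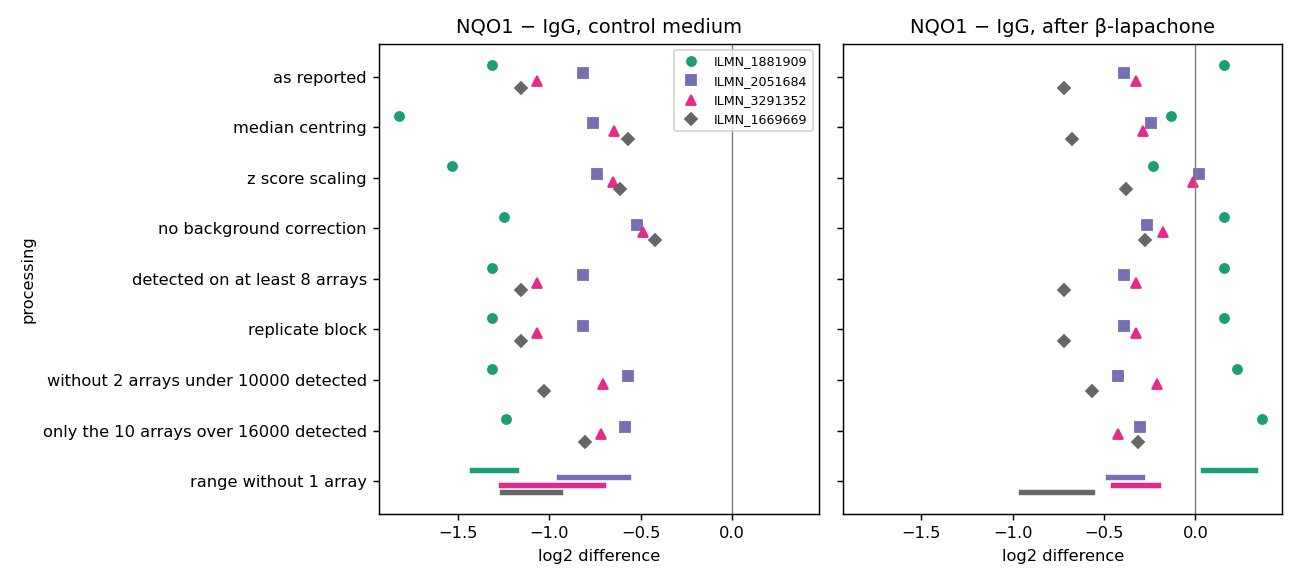
Log2 difference of NQO1 minus IgG for each of the 4 probes under each processing, in control medium (left) and after β-lapachone (right), with bars for the range when 1 array is left out. In control medium every point lies below 0, from -1.82 to -0.42, while after β-lapachone the points of ILMN_1881909 lie on either side of 0.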

How the data were processed

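Single-colour Illumina arrays of 16 precipitates were read from 1 table of 47231 probes. Per the file headers, the table was deposited without normalization and holds, for every array, a linear intensity and a detection p-value per probe. The submitters' processing notes name GenomeStudio 2011.1 without settings. Background was removed with normexp, using the detection p-values and an offset of 16, followed by quantile normalization and log2 (neqc, limma 3.58.1, R 4.3.3). The 19914 probes detected (p under 0.05) on at least 4 arrays were fitted with 1 mean per group over all 16 arrays (lmFit, eBayes), and Benjamini-Hochberg adjustment ran over all of them. The fit was tested on simulated data with independent noise for each probe and changes set only for the drug averaged over both precipitates. Differences shared by all probes of an array were not simulated. The members, lists and alternatives were chosen with earlier results of these data known. NQO1 against IgG, and its change with the drug, are described without a p; only β-lapachone averaged over both precipitates was tested. Named probes are the 4 members and, for each, the 2 tested probes with the highest Pearson correlation across the 16 arrays (7 distinct), plus 2 probes called for the drug, named after their values were seen. Genes, marker lists and probe sequences were not analysed here. The number of arrays limits the precision.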

Additional observations from a re-analysis of the deposited data

Results flagged for a closer look

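Among 16 groups of 4 arrays (4 probes in 4 groups), 1 had an array set apart from the next by more than Dixon's 95% limit allows. Chance alone flags 0.8 of 16 on average. For ILMN_1669669 in the NQO1 precipitates after β-lapachone, replicate 3 read 5.17 (log2, not above background) and the next array of its group 5.44.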

How the results depend on the processing

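For the 4 probes, 662 of 688 values under alternative processing stayed within the spread between replicates or, for the tested comparison, kept their direction and stayed unpassed, 21 moved by more than that spread and 5 reversed. The 5 all belong to ILMN_2051684 with β-lapachone averaged over both precipitates, a difference of 0.082: it was -0.077 with median centring, -0.090 with z scores, -0.026 without the 2 arrays under 10000 detected probes, -0.13 on the 10 arrays over 16000, and without single arrays it ran from -0.042 (without NQO1 replicate 4 of control medium) to 0.147. The cause was not tested. Over all probes, the 2 calls for the drug averaged over precipitates became 0 with median centring, 0 without background correction, 0 with the replicate block, 12 without the 2 arrays under 10000 and 143 on the 10 arrays over 16000. They ranged from 1 to 5 without single arrays. In the IgG precipitates the 0 calls (289 at an unadjusted p under 0.05 by limma) became 2 on the 10 arrays, and 0 to 1 without single arrays. The other 5 comparisons had 0 calls by limma in every setting run, with 59, 146, 149, 55 and 137 probes at an unadjusted p under 0.05 as reported for the antibody comparison without the drug, with it and averaged, for its change with the drug, and for the drug in the NQO1 precipitates. These 5 counts are between 0.276% and 0.748% of the tested probes. The replicate block changed no value of the 4 probes, since the design is balanced. The 24 correlations between deviations of same-numbered arrays ran from -0.855 to 0.883, and 9 were over 0.1. Between the NQO1 groups of the 2 media they were 0.832, 0.83, 0.731 and -0.585 for numbers 1 to 4. These values do not settle whether equal numbers are pairs. The labels do not say so either, and the fit as reported did not treat them as pairs. Dim signal limits ILMN_1669669 and ILMN_3291352 most.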
